A study of Mus musculus with 10 samples.

Results

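The peroxisome proliferator-activated receptors (PPARs) and the genes through which muscle cells take up and burn fatty acids were described in C2C12 cells after knockdown of *Fndc1*. The group has 10 genes, picked by symbol from the deposited table of 55359 genes, and all 10 were found. They are the receptor genes *Ppara*, *Ppard* and *Pparg*, the uptake genes *Cd36* and *Lpl*, the carrier genes *Fabp3* and *Fabp4*, the oxidation genes *Cpt1b* and *Acadm*, and the kinase gene *Pdk4*. C2C12 is a mouse myoblast line, a single clone of immortalized cells that fuse into myotubes when serum is withdrawn. One group (si-Control, 5 libraries) received a control siRNA and the other (si-*Fndc1*, 5 libraries) an siRNA against *Fndc1*, which encodes a secreted protein with fibronectin type III domains. Per the labels, all cells were grown in 20% fetal bovine serum, transfected with 100 nM siRNA and differentiated for 4 days in 2% horse serum, and no other treatment or allele was present in either group. The series text places the harvest at 48 h after transfection, and the paper's methods give 10% fetal bovine serum for growth of C2C12 cells. These differences were not resolved. The labels do not say whether the 5 libraries of a group came from separate cultures, so the p-values measure the spread between these libraries, which may be technical.

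PPARs are nuclear receptors that bind fatty acids and their derivatives and sit on DNA as heterodimers with retinoid X receptors. PPARα drives fatty acid oxidation in liver and heart, PPARδ is the main form of skeletal muscle, and PPARγ is the master regulator of fat cell formation. Fatty acids released by lipoprotein lipase enter a muscle fibre through CD36, are carried by FABP3, enter mitochondria through CPT1B and are shortened by acyl-CoA dehydrogenases such as ACADM. PDK4 phosphorylates the pyruvate dehydrogenase complex and so turns fuel use from glucose towards fat.

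The estimated counts of a library summed to between 66771605 and 75995168 in si-Control and between 56332844 and 72839369 in si-*Fndc1*. Levels are given as FPKM (fragments scaled by transcript length and library size), which allows genes to be set side by side. A gene was called when its adjusted p-value was under 0.05 by the quasi-likelihood test of edgeR, adjusted by Benjamini and Hochberg's method over the 13548 genes with a mean of at least 0.5 FPKM. The targeted gene *Fndc1* stood at 27.8 ± 2.04 FPKM without and 20.9 ± 1.70 FPKM with its siRNA (SD, n = 5 each, as for all values with ±), and its log2 fold change was -0.40 (adjusted p = 0.000934, standard error 0.07). With a correction for GC content and length, described below, its log2 fold change was -0.22 (edgeR adjusted p = 0.0104). The cells carried transcripts of myotubes, with 1900 ± 90.7 FPKM of the skeletal actin gene *Acta1* in si-Control and 1980 ± 172 FPKM in si-*Fndc1*. The summed FPKM of 12 myotube markers was between 4820 and 5320 in si-Control and between 4590 and 5300 in si-*Fndc1*. Of these 12 markers, *Ckm* and *Mymk* were called higher and *Mymx* lower, 25.0% against 34.4% of all tested genes. After the GC and length correction *Mymk* was not called (0.20, edgeR adjusted p = 0.116) and *Myog* was called lower (-0.18, adjusted p = 0.0217). *Des* was then called higher (0.10, adjusted p = 0.0386, from -0.04 before), so that 2 of the 12 rose and 2 fell. Of 6 tested markers of undifferentiated myoblasts, *Myod1* was called higher (log2 fold change 0.16) and none lower. After the correction *Myod1* stayed higher (0.24) and *Myf5* was called lower (-0.22, edgeR adjusted p = 0.0153). Transcripts of hepatocytes, a cell type foreign to this line, were present in every si-*Fndc1* library. The summed FPKM of 11 of them was between 0.0443 and 5.34 in si-Control and between 47.9 and 169 in si-*Fndc1*, and all 10 that could be tested were called higher. In bulk RNA, more cells of a type and more RNA per cell cannot be told apart. *Alb* (albumin) had 1.06 ± 1.26 FPKM in si-Control and 44.3 ± 19.5 FPKM in si-*Fndc1*, and *Apoa2* had 0.351 ± 0.322 and 30.6 ± 14.1 FPKM.

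Of the 10 genes, 8 passed the filter on low values and *Ppara* and *Fabp4* did not. *Fabp3*, *Cd36* and *Acadm* were called higher in si-*Fndc1*, none was called lower, and 5 were not called. Across all tested genes 17.3% were called higher and 17.2% lower, 34.4% in all, so the share of the 8 that was called (37.5%) lies near the background over both directions, and above it in the higher direction. The 10 genes were chosen with earlier results of these data known, so neither comparison is an independent test. The median log2 fold change of the 8 genes was 0.16, against 0.00 for all tested genes, and 0.06 once counts were corrected for GC and length (below) (their median GC content was 47.0%, against 50.5% for all tested genes with a value). In the same 3 genes, and in no other of the 10, every si-*Fndc1* library lay above every si-Control library in FPKM, which held for 12.1% of all tested genes in this direction and 25.1% in either. In the plot of FPKM by library these 3 genes show separate clouds and the other 7 overlap.

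**Figure D1:**
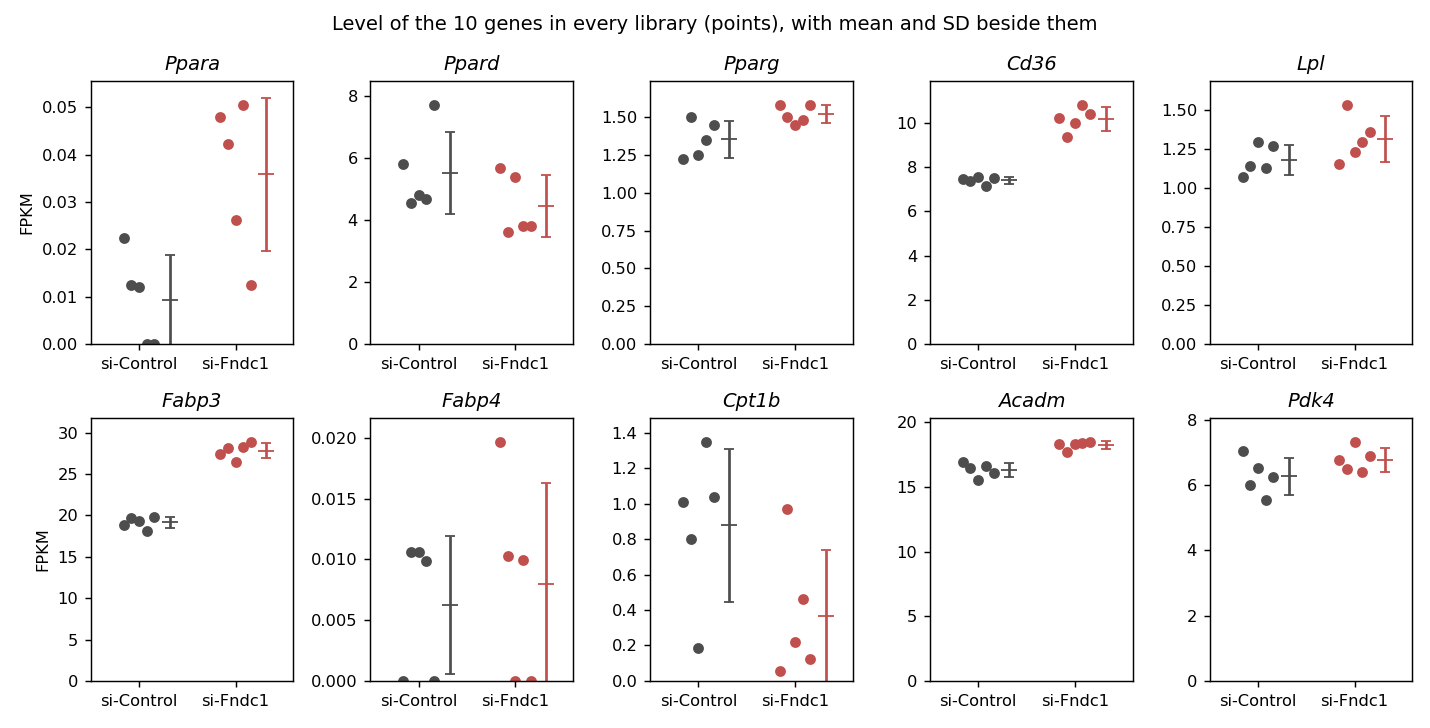
FPKM (vertical axes, from 0) of the 10 genes in each of 5 si-Control (grey) and 5 si-Fndc1 (red) libraries, with the mean and SD as a bar beside the points (bars that would reach below 0 are clipped at the axis). Fabp3, Cd36 and Acadm show no overlap between the groups, whereas Ppara and Fabp4 lie below 0.06 FPKM in every library.

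The upstream sequences of the 3 called genes are shown because they share a direction. They are the 250 bases before the transcription start that RefSeq gives, read from build GRCm38.p6 in the direction of the gene. Capitals mark the letters AGGTCA or its reverse complement TGACCT, the half-site of nuclear receptor response elements. A start was held for 7 of the 10 genes. The windows lie at chr5:17835897-17836146 on the minus strand for *Cd36*, at chr4:130308488-130308737 on the plus strand for *Fabp3* and at chr3:153944644-153944893 on the minus strand for *Acadm*.
Cd36: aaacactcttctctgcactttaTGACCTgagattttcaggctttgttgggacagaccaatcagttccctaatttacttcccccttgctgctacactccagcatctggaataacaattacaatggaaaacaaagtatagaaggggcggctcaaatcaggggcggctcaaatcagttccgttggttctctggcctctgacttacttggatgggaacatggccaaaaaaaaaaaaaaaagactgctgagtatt
Fabp3: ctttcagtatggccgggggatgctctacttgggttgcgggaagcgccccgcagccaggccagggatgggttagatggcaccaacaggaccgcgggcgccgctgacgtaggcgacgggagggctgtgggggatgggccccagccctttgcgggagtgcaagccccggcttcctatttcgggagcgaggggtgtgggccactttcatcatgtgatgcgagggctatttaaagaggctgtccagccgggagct
Acadm: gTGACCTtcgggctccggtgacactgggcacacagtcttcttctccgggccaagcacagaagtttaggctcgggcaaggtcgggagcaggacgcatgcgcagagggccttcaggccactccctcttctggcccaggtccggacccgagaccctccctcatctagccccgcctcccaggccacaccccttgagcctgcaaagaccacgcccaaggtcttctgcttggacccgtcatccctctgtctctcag

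*Cd36* held the half-site at -228 to -223 and *Acadm* at -249 to -244, counting back from -1 just before the start. In both it read TGACCT in the direction of the gene, so AGGTCA lay on the opposite strand. *Fabp3* held none. *Pparg*, which was not called, held the half-site in 2 of its windows, at -28 to -23 and at -9 to -4 before their starts. There it read AGGTCA in the direction of the gene. The half-site occurred in 14.0% of 32851 RefSeq windows of this length on either strand. A direct repeat of the half-site with 1 base between (AGGTCANAGGTCA, either strand), the classical form bound by PPAR and retinoid X receptor pairs, was in 0.0335% of windows and in none of the 7 genes. The E-box CANNTG, the letters that MyoD-type factors read, lay at -45 to -40 in *Fabp3* and at -150 to -145 in *Cd36*, and 66.2% of all windows held it. These are letter matches in a short window, and binding was not measured.

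Among the receptors *Ppard* was the most abundant. Its FPKM was 5.80, 4.55, 4.81, 4.69 and 7.72 in si-Control 1 to 5 and 5.70, 3.61, 5.38, 3.82 and 3.80 in si-*Fndc1* 1 to 5. The groups overlapped, although 3 si-*Fndc1* libraries lay below all si-Control libraries, and si-Control 5 stood highest. The log2 fold change of -0.30 (standard error 0.18) did not pass the test (edgeR adjusted p = 0.226). *Pparg* had 1.22, 1.50, 1.25, 1.35 and 1.45 FPKM in si-Control and 1.58, 1.50, 1.45, 1.48 and 1.58 FPKM in si-*Fndc1*. The si-*Fndc1* values were the tighter group (SD 0.0571 against 0.123) and overlapped the upper si-Control values. Its log2 fold change of 0.17 (standard error 0.09) was not called (edgeR adjusted p = 0.15), and an exact permutation test on FPKM gave p = 0.0397, or 0.0794 after Benjamini-Hochberg adjustment over the 8 tested genes.

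*Ppara* stood at the edge of detection. Its estimated count was 8, 4, 4, 0 and 0 in si-Control and 15, 14, 8, 16 and 3 in si-*Fndc1*. In a library, 961 to 1142 genes had a count of 4, against 362 to 437 with 3 and 201 to 247 with 5, so a read pair may add about 4, and these values may stand for few pairs. The mean was 0.00936 ± 0.00951 FPKM in si-Control and 0.0358 ± 0.0161 FPKM in si-*Fndc1*. Hepatocyte transcripts were higher in the same group. At hepatocyte sums of 0.0443, 0.139, 1.80, 4.41 and 5.34 FPKM, si-Control 4, 1, 2, 3 and 5 had 0, 8, 4, 4 and 0 counts of *Ppara*. At 47.9, 94.9, 161, 164 and 169 FPKM, si-*Fndc1* 5, 1, 3, 4 and 2 had 3, 15, 8, 16 and 14. The part of such transcripts in the *Ppara* value was not tested.

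The share of each receptor in the summed PPAR transcripts is free of the total of a library, but not of gene length or base composition. *Ppard* gave 79.7% ± 3.68 (SD, n = 5) of the summed PPAR FPKM in si-Control and 73.6% ± 4.13 in si-*Fndc1*. *Pparg* gave 20.2% ± 3.67 and 25.7% ± 4.07, and *Ppara* gave 0.144% ± 0.14 and 0.606% ± 0.297. By two-sided exact permutation tests the differences (si-*Fndc1* minus si-Control) of -6.04, 5.58 and 0.462 percentage points had p = 0.0556, 0.0635 and 0.0159. Adjusted over 4 such comparisons, with the ratio of *Cpt1b* to *Cpt1a* given below, the p-values were 0.0847, 0.0847 and 0.0636, and none passed. The *Ppard* and *Pparg* shares overlapped between groups, since si-*Fndc1* 1 and 3 held 77.8% and 78.4% *Ppard* and si-Control 2 held 75.0%. Without si-*Fndc1* 1 or without si-*Fndc1* 3 the unadjusted exact p was 0.0476 for both shares, and without si-Control 4 or without si-Control 5 it was 0.0556 for *Ppara*. As shares of CPM, with no division by length, the differences were -3.31 percentage points for *Ppard*, 3.01 for *Pparg* and 0.292 for *Ppara*. After GC correction the log2 fold changes of *Ppard* and *Pparg* were both near 0 (-0.00 and 0.02).

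The partners of the receptors were lower or not called. Of 15 genes for retinoid X receptors, coactivators and corepressors, 13 were tested, 6 fell and 0 rose, with a median log2 fold change of -0.24. Across all tested genes 17.3% were called higher and 17.2% lower, which is also the background of the counts in the groups below. *Rxra*, a retinoid X receptor gene, fell from 11.5 ± 0.401 to 9.63 ± 0.291 FPKM (log2 fold change -0.25, adjusted p = 0.000343). *Ppargc1b*, a coactivator of mitochondrial genes, fell from 1.49 ± 0.193 to 0.915 ± 0.107 FPKM (-0.69, adjusted p = 0.00108). *Ppargc1a*, the other coactivator of this kind, was below the filter at 0.311 ± 0.0848 and 0.307 ± 0.0462 FPKM, and *Rxrg* was at 0 in all libraries. With a correction for GC content and length, described below, *Rxra* was at -0.03 and not called, *Ppargc1b* stayed called at -0.50 (adjusted p = 0.00837), and 2 of the 13 fell. In that fit 1278 of 11185 genes were called lower.

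*Cd36*, the fatty acid translocase, had 7.44, 7.35, 7.56, 7.12 and 7.51 FPKM in si-Control and 10.2, 9.34, 10.0, 10.8 and 10.4 FPKM in si-*Fndc1*. The lowest si-*Fndc1* library stood well clear of the highest si-Control library. The mean was 37.2% higher, and the log2 fold change was 0.46 (standard error 0.05, edgeR adjusted p = 4.96e-05), or 0.19 (adjusted p = 0.00627) after GC correction. *Fabp3*, the fatty acid binding protein of heart and skeletal muscle, had 18.8, 19.7, 19.3, 18.1 and 19.8 FPKM in si-Control and 27.4, 28.1, 26.5, 28.2 and 28.9 FPKM in si-*Fndc1*. It showed the largest separation of the 10 genes, a mean 45.4% higher and a log2 fold change of 0.55 (standard error 0.05, edgeR adjusted p = 2.12e-05), or 0.40 after GC correction. It ranked 85 by p-value among all 13548 genes, and *Cd36* ranked 215. *Fabp3* overlaps *Zcchc17* on the opposite strand by 81 bases, and *Zcchc17* was not called (log2 fold change -0.17, adjusted p = 0.0994). *Cd36*, *Fabp3* and *Acadm* each had exact permutation p = 0.00794 on FPKM, the smallest that 5 against 5 libraries can give (0.0212 adjusted over the 8 genes).

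*Lpl*, the lipase that frees fatty acids from circulating lipoproteins, had 1.07, 1.14, 1.29, 1.13 and 1.27 FPKM in si-Control and 1.15, 1.53, 1.23, 1.29 and 1.36 FPKM in si-*Fndc1*. The groups overlapped, with si-*Fndc1* 2 highest, and the log2 fold change of 0.16 (standard error 0.09) was not called (edgeR adjusted p = 0.183). Its transcript length implied by count and FPKM, 11665 bases, was the longest of the 10 genes, and its FPKM depends on that length. *Fabp4*, the carrier of fat cells, had 0, 5, 5, 4 and 0 counts in si-Control and 8, 5, 0, 4 and 0 in si-*Fndc1*, with no separation. Of 8 fat cell markers, *Adipoq*, *Plin1*, *Lep*, *Retn* and *Cfd* were at 0 in all 10 libraries and the 2 tested, *Cebpa* and *Lipe*, were not called (without si-Control 2, *Cebpa* was called lower, at -0.40). *Cidec*, below the filter, had 0 counts in every si-Control library and 0, 4, 8, 0 and 4 in si-*Fndc1* 1 to 5. The 8 markers summed to between 2.03 and 13.2 FPKM in si-Control and between 9.19 and 10.0 FPKM in si-*Fndc1*. Endothelial markers, none of them above the filter, summed to between 0.111 and 0.161 FPKM in si-Control and between 0.134 and 0.316 FPKM in si-*Fndc1*, with *Tek* and *Vwf* the most abundant at 0.0976 and 0.0202 FPKM in si-Control and 0.164 and 0.0105 FPKM in si-*Fndc1*. Macrophage markers summed to 4.35 to 5.08 and 3.87 to 5.03 FPKM, nearly all of it *Cd14* and *Cd68*, which were not called, and *Ptprc* and *Adgre1* were at 0.

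Of 14 further genes of uptake, carriage and activation, 13 were tested, 2 rose and 2 fell. *Dbi*, which encodes the acyl-CoA binding protein, rose from 37.3 ± 2.55 to 62.7 ± 3.97 FPKM, a log2 fold change of 0.76 (adjusted p = 1.55e-05) that exceeded those of the 8 tested PPAR and fatty acid genes. *Got2*, the mitochondrial aspartate aminotransferase also found at the plasma membrane, was the other that rose (0.12). The fatty acid transporters *Slc27a1* (24.8 ± 1.40 to 21.0 ± 1.41 FPKM, log2 fold change -0.24) and *Slc27a4* (-0.20) fell, so that *Cd36* and these transporters moved in opposite directions. After GC correction both transporters were near 0 (0.02 and -0.03) and not called. *Angptl4*, a PPAR target that inhibits lipoprotein lipase, had 3.53 ± 0.857 and 3.42 ± 0.414 FPKM (log2 fold change -0.04, adjusted p = 0.876).

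*Acadm*, the medium-chain acyl-CoA dehydrogenase, had 16.9, 16.5, 15.5, 16.6 and 16.1 FPKM in si-Control and 18.3, 17.7, 18.3, 18.4 and 18.5 FPKM in si-*Fndc1*. The groups did not overlap, but the difference was small, with a mean 11.8% higher and a log2 fold change of 0.17 (standard error 0.03, edgeR adjusted p = 0.00195, rank 1636). The neighbouring steps of β-oxidation moved in both directions. Of 15 further genes, all tested, 3 rose and 3 fell, with a median log2 fold change of 0.09. *Acadl*, the long-chain dehydrogenase, rose from 53.6 ± 1.98 to 67.8 ± 3.61 FPKM (0.35, adjusted p = 0.000175), and *Hadha*, a subunit of the trifunctional protein, rose from 19.6 ± 0.332 to 22.4 ± 0.13 FPKM (0.20, adjusted p = 0.000162). *Acadvl*, the very-long-chain dehydrogenase, fell from 35.8 ± 0.442 to 32.5 ± 0.784 FPKM (-0.13, adjusted p = 0.00275). The other 3 called were *Hadhb* (0.25), *Etfb* (-0.29) and *Acaa2* (-0.14). After GC correction *Acadl* was not called (0.09), *Hadha* was at 0.31 (adjusted p = 0.000128), and 2 genes rose and 4 fell.

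Hepatocytes also express *Cd36* and *Acadm*, and their transcripts were higher in the same libraries as the called genes. The part of these transcripts in the called differences was not tested. The hepatocyte sum was 47.9, 94.9, 161, 164 and 169 FPKM in si-*Fndc1* 5, 1, 3, 4 and 2. In that order *Fabp3* had 28.9, 27.4, 26.5, 28.2 and 28.1 FPKM. *Acadm* had 18.5, 18.3, 18.3, 18.4 and 17.7 FPKM, and *Cd36* had 10.4, 10.2, 10.0, 10.8 and 9.34 FPKM. In the plot of the called genes beside the hepatocyte sum, the groups lie apart on both axes. The sum was 0.0443 to 5.34 FPKM in si-Control, so differences that go with it cannot be told apart from differences between the siRNAs.

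**Figure D2:**
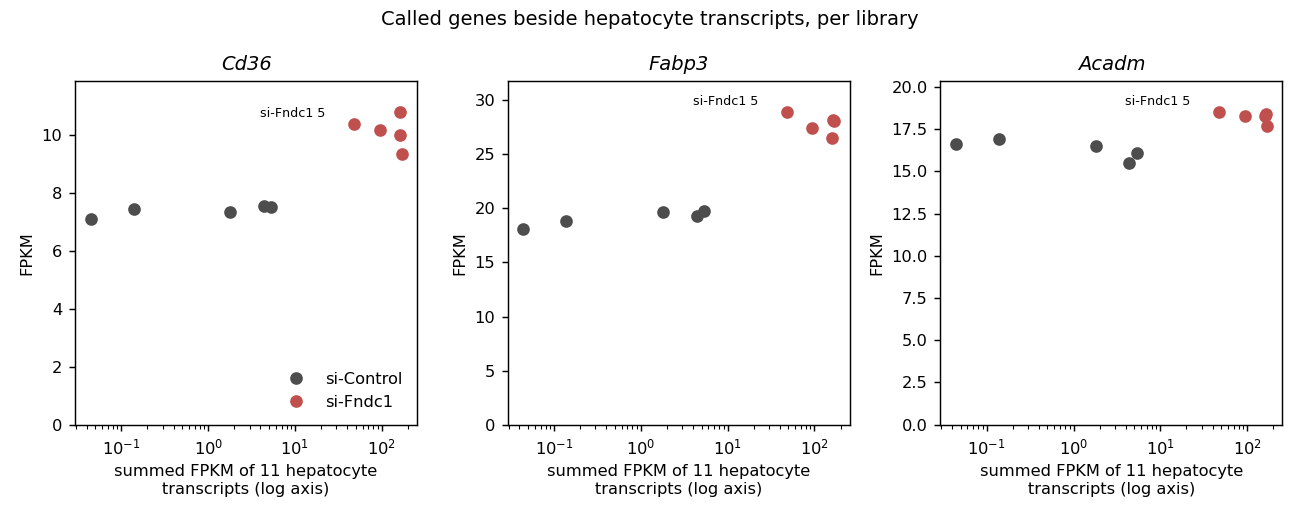
FPKM of Cd36, Fabp3 and Acadm (vertical axes, from 0) against the summed FPKM of 11 hepatocyte transcripts (log axis) in the 10 libraries, si-Control in grey and si-Fndc1 in red. The si-Fndc1 libraries lie apart from the si-Control libraries on both axes in each panel, and si-Fndc1 5, with the lowest sum of its group, is labelled.

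*Cpt1b*, the muscle form of the enzyme that commits fatty acids to mitochondrial import, had estimated counts of 289, 216, 51, 369 and 262 in si-Control and 17, 268, 59, 127 and 28 in si-*Fndc1*. Both groups held high and low libraries, with si-Control 3 at the level of the low si-*Fndc1* libraries and si-*Fndc1* 2 at that of si-Control. The log2 fold change of -1.22 had a standard error of 0.68 and was not called (edgeR adjusted p = 0.189). *Cpt1b*, listed at 89300608 to 89310066 on the minus strand of chromosome 15, lies wholly inside *Gm44502* (89300608 to 89313899, same strand), which also reaches into the neighbouring *Chkb*. *Gm44502* had counts of 0, 0, 479, 0 and 66 in si-Control and 1032, 27, 729, 609 and 364 in si-*Fndc1*. The libraries low in *Cpt1b* were those high in *Gm44502*, and reads of the shared bases cannot be assigned to either gene with certainty. With the counts of both summed, the log2 fold change was 0.97 (edgeR adjusted p = 0.0435), and with *Chkb* added it was 0.14 (adjusted p = 0.312), so no direction can be given for *Cpt1b*. Without si-*Fndc1* 2, *Cpt1b* alone was at -1.97 (adjusted p = 0.0364). The sums were added after the values had been seen.

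**Figure D3:**
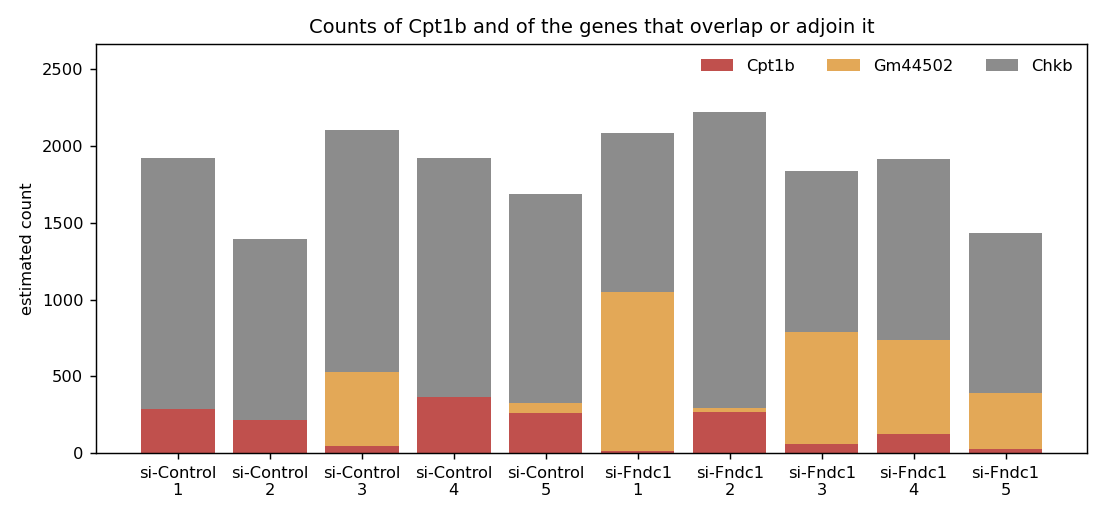
Stacked bars (from 0) of the estimated counts of Cpt1b (red), Gm44502 (orange) and Chkb (grey) in each library. Gm44502 takes 1032 counts in si-Fndc1 1, where Cpt1b has 17, and 0 in si-Control 1, where Cpt1b has 289, while the sum of all 3 ranges from 1392 to 2217.

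Of 8 genes of the carnitine shuttle and its control by malonyl-CoA, 7 were tested, 1 fell and 0 rose. *Mlycd*, whose enzyme removes malonyl-CoA, fell from 5.10 ± 0.324 to 3.97 ± 0.217 FPKM (-0.35, adjusted p = 0.00148) and was not called after GC correction (-0.14). With that correction 1 of the 7 fell, *Slc22a5* (-0.19, edgeR adjusted p = 0.0434), and 0 rose. *Cpt1a*, the liver form of the import enzyme, was more abundant here than *Cpt1b*, at 9.56 ± 0.481 FPKM in si-Control and 9.08 ± 0.265 FPKM in si-*Fndc1*, and was not called (-0.07, adjusted p = 0.224). The log2 ratio of *Cpt1b* to *Cpt1a* was -3.71 ± 1.18 and -5.27 ± 1.62 (two-sided exact permutation test, p = 0.119), and it carries the same uncertainty of assignment. Without si-*Fndc1* 2 the difference of the log2 ratios was -2.10 (exact p = 0.0476).

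*Pdk4* had 7.05, 6.00, 6.53, 5.54 and 6.26 FPKM in si-Control and 6.76, 6.48, 7.33, 6.40 and 6.89 FPKM in si-*Fndc1*. The highest si-Control library exceeded 4 of the 5 si-*Fndc1* libraries, and the log2 fold change of 0.12 (standard error 0.07) was not called (edgeR adjusted p = 0.224). The genes around it changed by small amounts in both directions or were not called. The kinases *Pdk2* (0.01) and *Pdk3* (0.13) and the subunit gene *Pdha1* (0.02) were not called (edgeR adjusted p = 0.934, 0.16 and 0.639). Of 12 genes of the pyruvate dehydrogenase complex, its kinases, phosphatases and the pyruvate carrier, all tested, 5 rose and 2 fell. *Pdk1*, another kinase of the complex, rose from 9.53 ± 0.54 to 10.6 ± 0.544 FPKM (0.17, adjusted p = 0.0173), *Dld*, its E3 subunit, rose from 42.5 ± 2.12 to 46.7 ± 2.06 FPKM (0.14, adjusted p = 0.0231), and *Dlat*, its E2 subunit, fell from 18.9 ± 0.87 to 16.6 ± 0.359 FPKM (-0.18, adjusted p = 0.00348). After GC correction *Pdk1* was not called, *Dld* was called lower (-0.10), *Dlat* stayed lower (-0.24), and 1 gene rose and 3 fell. The count of 7 called genes in this group dropped to as few as 2, without si-Control 1, and was 3 without si-Control 3, si-*Fndc1* 3, si-*Fndc1* 4 or si-*Fndc1* 5 and 4 without si-Control 4 or si-*Fndc1* 1. *Dld* lost its call without si-Control 1 or 3 and without si-*Fndc1* 4 or 5 (adjusted p up to 0.0563).

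Other known PPAR targets moved in both directions. Of 17 genes, 11 were tested, 2 rose and 2 fell, with a median log2 fold change of -0.04. *Cyp4a10*, a fatty acid ω-hydroxylase typical of liver, had no count in any si-Control library and 32, 153, 289, 223 and 116 in si-*Fndc1*, and was called higher (edgeR adjusted p = 0.000619). *Cyp4a14* and *Ehhadh*, below the filter and likewise strong in liver, had 0 and 0 to 30 counts in si-Control and 4 to 209 and 48 to 137 in si-*Fndc1*. Like the hepatocyte transcripts, these 3 were higher in si-*Fndc1*. The hepatocyte sum was 47.9, 94.9, 161, 164 and 169 FPKM in si-*Fndc1* 5, 1, 3, 4 and 2. In that order *Cyp4a10* had 116, 32, 289, 223 and 153 counts, and *Cyp4a14* had 102, 4, 209, 119 and 156. *Ehhadh* had 72, 48, 84, 94 and 137. In si-Control 5, at 5.34 FPKM, *Cyp4a10* and *Cyp4a14* had 0 counts and *Ehhadh* had 30. The part of hepatocyte transcripts in these values was not tested. *Plin2*, which coats lipid droplets in many cell types, fell from 29.6 ± 1.72 to 26.1 ± 0.753 FPKM (-0.17, adjusted p = 0.00957), *Ucp2* fell from 8.84 ± 0.383 to 7.64 ± 0.823 FPKM (-0.20), and *Ucp3*, a target in muscle, was below the filter at 0.0521 ± 0.0317 and 0.0689 ± 0.0404 FPKM. After GC correction *Plin2* stayed lower (-0.15, adjusted p = 0.0207) and *Ucp2* was not called (-0.03, adjusted p = 0.842), and of the 11 genes 3 rose and 1 fell.

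Storage and synthesis genes were lower or not called, with 1 exception. Of 15 genes of lipid droplets and lipolysis, 9 were tested, 3 fell and 0 rose. These were *Pnpla2*, the triglyceride lipase (14.2 ± 1.30 to 10.8 ± 1.28 FPKM, -0.38, adjusted p = 0.00784), *Plin2* and *Plin3* (-0.13, adjusted p = 0.0436). *Plin3* was called in 11 of 23 alternatives and lost its call without si-Control 1, 2 or 3 and without si-*Fndc1* 1, 2 or 5 (adjusted p up to 0.095). Of 13 genes of fatty acid synthesis, 11 were tested, 6 fell and 1, *Me1*, rose (0.29). *Srebf1*, the transcription factor of this pathway, fell from 20.9 ± 0.95 to 16.7 ± 0.317 FPKM (-0.31, adjusted p = 0.000108), *Fasn*, the fatty acid synthase, from 41.3 ± 2.75 to 31.8 ± 1.12 FPKM (-0.37, adjusted p = 0.00023), and *Scd2*, a stearoyl-CoA desaturase, from 177 ± 4.67 to 141 ± 6.87 FPKM (-0.32, adjusted p = 0.00014). After GC correction *Scd2* stayed at -0.31 and *Srebf1* and *Fasn* were not called (-0.08 and -0.07), nor were *Pnpla2* (-0.26, adjusted p = 0.0669) and *Plin3* (-0.06, adjusted p = 0.338), and 1 droplet gene and 3 synthesis genes fell. Over the 8 groups of pathway genes, 105 in all, 88 were tested, 13 rose and 24 fell. Of all tested genes 17.3% rose and 17.2% fell. These totals are without GC correction. With it the genes called lower went from 6 to 2 for receptor partners, 6 to 3 for synthesis and 3 to 1 for droplets. They went from 2 to 0 for uptake and 2 to 1 for other PPAR targets, and stayed at 1 for the carnitine group. They went from 3 to 4 for β-oxidation and 2 to 3 for pyruvate dehydrogenase.

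**Figure D4:**
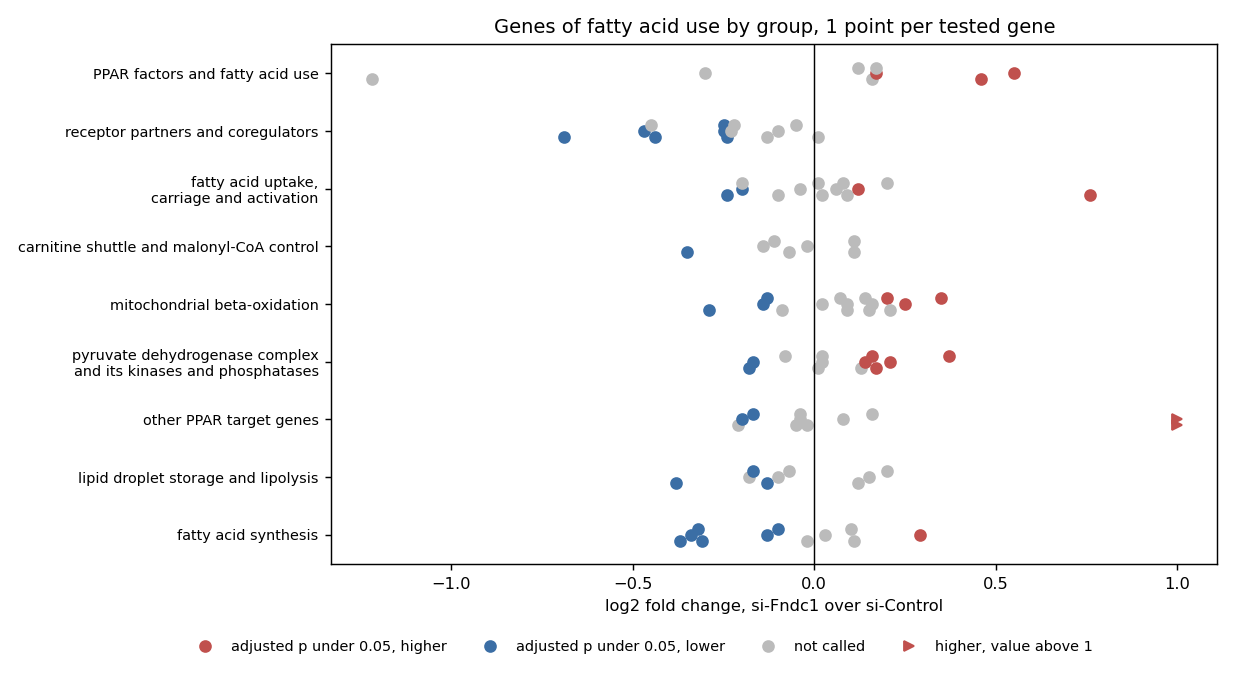
Log2 fold change, si-Fndc1 over si-Control (horizontal axis), of each tested gene of the PPAR and fatty acid use genes and of 8 further groups, coloured by whether the edgeR adjusted p was under 0.05. Receptor partners hold 6 called genes, all lower, and synthesis holds 6 lower and 1 higher, and triangles at the right edge stand for values that exceed the axis.

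Fold changes in these libraries varied with base composition. Over 11185 genes the log2 fold change fell with the GC content of the transcript (Spearman's rho -0.523 across genes, which are not independent replicates). *Cd36* had the lowest GC content of the 10 genes, 39.0%, and *Ppard* the highest, 59.5%. With the trend of counts with GC content and length removed in each library, 1259 of the 11185 genes (11.3%) were called higher and 1278 lower. *Fabp3* was then at 0.40 (standard error 0.05, adjusted p = 0.000382), *Cd36* at 0.19 (standard error 0.04, adjusted p = 0.00627) and *Acadm* at 0.11 (standard error 0.03, adjusted p = 0.0181). All 3 stayed called, and *Cd36* moved the most, from 0.46. *Pparg* was then at 0.02, *Lpl* at 0.10, *Pdk4* at -0.04 and *Cpt1b* at -1.16, and none of these was called. *Ppard*, at -0.30 before, had an adjusted p of 0.997. Whether the trend is technical was not tested.

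**Figure D5:**
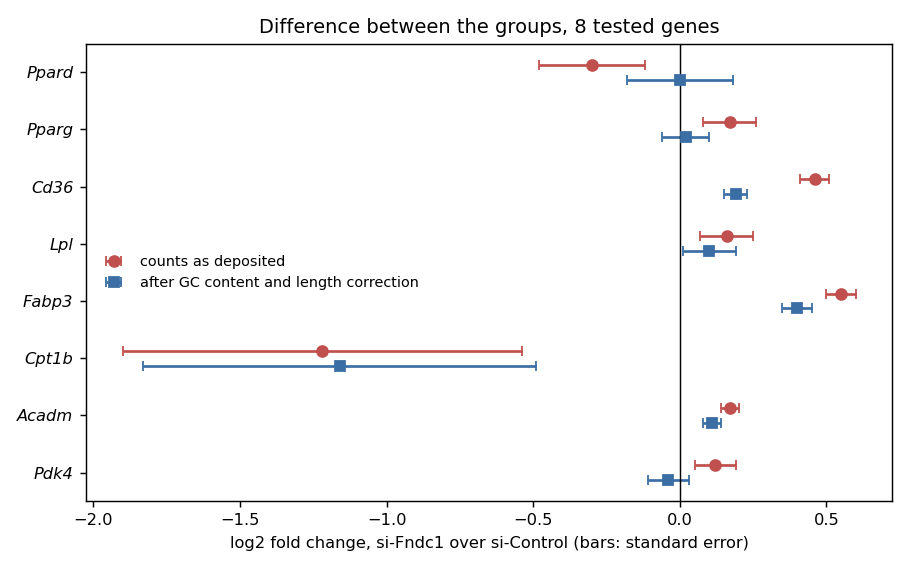
Log2 fold change, si-Fndc1 over si-Control, with its standard error as a bar, of the 8 tested genes before (red circles) and after (blue squares) correction for GC content and length. Fabp3, Cd36 and Acadm stay above 0 in both, Cd36 moves from 0.46 to 0.19, and Cpt1b has the widest bars.

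The order of levels was alike in both groups, by mean FPKM *Fabp3*, *Acadm*, *Cd36*, *Pdk4*, *Ppard*, *Pparg*, *Lpl*, *Cpt1b*, *Ppara* and *Fabp4*. In si-Control the ranges of *Pdk4* and *Ppard* overlapped, as did those of *Pparg* and *Lpl*, of *Lpl* and *Cpt1b*, and of *Ppara* and *Fabp4*, so these neighbours cannot be ordered. In si-*Fndc1* the ranges of *Pdk4* (6.40 to 7.33 FPKM) and *Ppard* (3.61 to 5.70 FPKM) were apart. The library-to-library spread set how firmly each gene could be read. The coefficient of variation in si-Control was 2.32% for *Cd36*, 3.23% for *Acadm* and 3.50% for *Fabp3*, against 24.1% for *Ppard* and 49.5% for *Cpt1b*.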

How the data were processed

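RNA-seq of C2C12 cells was analysed, 5 si-Control and 5 si-*Fndc1* libraries, grouped by label. The authors deposited estimated counts (whole numbers, not normalized) and FPKM values for 55359 genes. The counts were treated as estimated because 961 to 1142 genes per library have the value 4 against 362 to 437 the value 3, a step pattern unlike that of directly counted reads. The paper's methods name TopHat, mm10 and htseq-count for 4 libraries, the series text STAR and mm9, and the submitters' processing notes GRCm39, cutadapt 1.9 and FastQC, and the conflict was not resolved. Coordinates are those of the deposited table, which names no build. Whether counting used the strand is not given in the sources used here.

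Genes with a mean of at least 0.5 FPKM (13548) were tested with edgeR 4.0.16 (quasi-likelihood, TMM factors 0.9899 to 1.0054, no covariate) in R 4.3.3, adjusted over all of them. Single levels were compared by two-sided exact permutation tests (smallest p 0.00794), in Python 3.11.15 with scipy 1.17.1. DESeq2 1.42.0, other scalings, filters and limma 3.58.1 on log2(FPKM + 1), log2(FPKM + 0.1) and quantile-normalized values, a replicate term, and each library left out were alternatives. The GC content came from NCBIM37 transcripts and the length from count and FPKM (11185 genes, 82.6%), and the trend was fitted per library by splines of 5 degrees of freedom with Huber regression of log counts (0.5 added) and used as an offset. The fits were tested on simulated data. Libraries of a group were no copies of each other, with a chi-square of 43.041 to 80.431 per degree of freedom in 20 pairs.

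The 10 genes and all lists were chosen with earlier results of these data known. Named genes are the 10, the 3 called genes with the smallest p-value in each list, *Ppargc1a*, *Cpt1a*, *Angptl4*, *Acadl*, *Acadvl*, *Ucp3*, *Plin2*, the 2 most abundant markers per cell type, and *Fndc1*. The overlapping genes, the absent or unabundant markers, *Got2*, *Hadhb*, *Etfb*, *Acaa2*, *Me1*, *Ucp2*, *Rxrg*, *Cyp4a14* and *Ehhadh* were named after their values were seen. So were *Slc22a5*, *Pdk2*, *Pdk3*, *Pdha1* and the myotube markers called with or without GC correction. Some genes that this rule picks are not reported here. The ratio of *Fabp3* to *Fabp4* was not computed, since *Fabp4* is at 0 in several libraries. Counts were expected to be read counts, and estimated counts were used as whole numbers in the same test.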

Additional observations from a re-analysis of the deposited data

Results flagged for a closer look

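Of the 10 libraries, si-*Fndc1* 2 stood apart for *Acadm*, at 17.7 FPKM against 18.3 to 18.5 FPKM in the other 4 si-*Fndc1* libraries. Its gap to the nearest library was 0.741 of the range of the group, above the critical value of 0.71 for 5 libraries. Among 16 groups of 5 looked at in this way it was the only one, and chance gives about 1 in 20. The value still lies above all si-Control libraries.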

How the results depend on the processing

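The number of genes called over the whole table was 4663 and ranged from 4000 to 4627 when a library was left out. It was 3572 with the replicate block, 2537 with GC and length correction and 1645 with that correction and the block. The replicate numbers did not pair the libraries (correlation of same-numbered deviations from -0.055 to 0.064, with number 3 alone correlating best with its own), and the fit with the block called the same 3 of the 10 genes. *Cd36* and *Fabp3* were called higher in all 23 alternatives (log2 fold changes 0.19 to 0.49 and 0.40 to 0.56) and *Acadm* in 22 of 23 (0.11 to 0.19, adjusted p = 0.0727 with GC correction and block). The number of the 10 genes called lower was 0 to 1 with a library left out, the 1 being *Cpt1b*. With GC correction, without and with the block, the called genes were 2 and 2 for receptor partners, 2 and 2 for uptake, 4 and 1 for pyruvate dehydrogenase, 1 and 1 for droplets and 4 and 3 for synthesis. The carnitine group had 0 called with GC correction and block and 0 at a minimum of 5 FPKM, where the other PPAR targets had 2. The pyruvate dehydrogenase group had 2 called with the replicate block and 2 to 7 with a library left out. Shares of CPM gave -3.31 percentage points for *Ppard* (p = 0.0476, exact permutation test), and leaving out a library gave -7.23 to -4.91 for *Ppard*, 4.48 to 6.73 for *Pparg*, 0.377 to 0.556 for *Ppara*, and -2.10 to -1.05 for the log2 ratio of *Cpt1b* to *Cpt1a*.

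Directions turned in 12 of the 42 named genes picked by rule, and the causes were not tested. With GC correction, without and with the block, the log2 fold changes were 0.02 and 0.03 for *Cpt1a*, -0.10 and -0.10 for *Dld*, 0.07 and 0.07 for *Lipe*, -0.22 and -0.22 for *Myf5*, -0.04 and -0.03 for *Pdk4*, 0.02 and 0.02 for *Slc27a1*, -0.08 and -0.08 for *Tnnc2* and 0.11 and 0.38 for *Cebpa*. *Cebpa* was also at 0.16, 0.29 and 0.18 in the limma fits, 0.16 with the block and 0.01 without si-Control 3 (-0.40 to 0.01 over the libraries left out). Quantile normalization gave -0.12 for *Acta1* and -0.27 for *Tnnc2*. *Angptl4* was at 0.01, 0.07 and 0.03 without si-Control 2, si-Control 5 or si-*Fndc1* 1 (-0.13 to 0.07 over the libraries), *Cd68* at 0.00 without si-Control 5, and *Cpt1b* at 0.97 and 0.14 summed with its overlapping genes. Of 956 comparisons of 42 named genes with their alternatives, 885 kept direction and call, 40 lost the call, 2 gained it and 29 turned. Few counts limit *Ppara* and *Fabp4*.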
